A study of Homo sapiens with 5 samples.

Results

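Wide G4 regions are stretches of at least 1000 bp that were covered without a break by BG4 ChIP-seq peaks of C4-2 cells. C4-2 cells are an androgen-independent line of human prostate cancer, and the series holds 4 biological replicates of them in 1 condition. The chromatin had been fixed with 1% formaldehyde, sheared to fragments of 100 to 500 bp and immunoprecipitated with the antibody BG4. An input library was not analysed here, so the peaks stand on the authors' own background model. The peak lists of the 4 replicates were pooled, and any peaks sharing at least 1 bp were joined to form merged regions. A region was recurrent when it held a peak of at least 2 replicates, and a recurrent region on chromosomes 1 to 22 was wide when its merged length reached 1000 bp. Of 10852 merged regions in the series, 6835 were recurrent and 6411 of these lay on chromosomes 1 to 22. Wide regions numbered 252 of the 6411 (3.93%), and the other 6159 are called narrower. All positions of peaks are on GRCh37 (hg19), the build that the submitters' processing notes name.

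A G-quadruplex (G4) is a folded structure of guanine-rich DNA in which runs of guanines stack into planar tetrads held by loops. BG4 is a single-chain antibody that binds folded G4s, and in chromatin it is known to mark nucleosome-depleted promoters of transcribed genes. The peak caller MACS2 reports 1 summit, the position of highest pileup, for each narrow peak. A long region can therefore be made of 1 broad mound of signal, of several summits side by side, or of peaks that are shifted between replicates. The members were chosen by their merged length and number of replicates, so these are given as description, and the fold enrichment at the same peaks is related to both. Regions are not independent replicates of the cells, and exact binomial 95% confidence intervals (CI) of shares cover counting error only.

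Gene names were taken from 1303 windows of 4000 bp in the study's list of genes with G4 peaks, each given on hg19. The sequences below were chosen to show the G and C content at genes whose window centre lay inside a wide region. They are the 250 bases before the RefSeq start of each gene on GRCh38.p14, read 5′ to 3′ on the gene's strand, and are not the sequence of the hg19 peaks. Capitals mark every run of 3 or more G or of 3 or more C. SLX1B encodes a catalytic subunit of a structure-specific endonuclease and its promoter lies at chr16:29454283-29454532 on the plus strand. RASEF encodes a small GTPase of the Rab family with EF-hand domains and its promoter lies at chr9:83063143-83063392 on the minus strand. ZIC2 encodes a zinc finger transcription factor of forebrain development and its promoter lies at chr13:99981534-99981783 on the plus strand. FBXW4 encodes an F-box protein with WD40 repeats and its promoter lies at chr10:101695171-101695420 on the minus strand.
SLX1B: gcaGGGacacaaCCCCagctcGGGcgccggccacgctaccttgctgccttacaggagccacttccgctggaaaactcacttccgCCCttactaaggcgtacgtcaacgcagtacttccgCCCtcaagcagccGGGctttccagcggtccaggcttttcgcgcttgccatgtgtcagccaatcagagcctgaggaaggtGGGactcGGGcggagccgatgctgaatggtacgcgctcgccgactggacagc
RASEF: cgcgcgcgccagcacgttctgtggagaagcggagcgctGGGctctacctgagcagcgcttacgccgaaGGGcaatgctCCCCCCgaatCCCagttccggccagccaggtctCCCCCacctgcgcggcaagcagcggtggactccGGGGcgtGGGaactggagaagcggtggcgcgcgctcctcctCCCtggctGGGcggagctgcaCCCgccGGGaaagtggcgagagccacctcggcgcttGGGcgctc
ZIC2: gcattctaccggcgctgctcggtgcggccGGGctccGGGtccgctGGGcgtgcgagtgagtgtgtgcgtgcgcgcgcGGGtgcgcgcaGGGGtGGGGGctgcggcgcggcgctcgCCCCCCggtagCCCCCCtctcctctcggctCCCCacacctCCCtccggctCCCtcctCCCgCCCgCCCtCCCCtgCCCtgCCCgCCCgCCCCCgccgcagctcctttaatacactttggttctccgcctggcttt
FBXW4: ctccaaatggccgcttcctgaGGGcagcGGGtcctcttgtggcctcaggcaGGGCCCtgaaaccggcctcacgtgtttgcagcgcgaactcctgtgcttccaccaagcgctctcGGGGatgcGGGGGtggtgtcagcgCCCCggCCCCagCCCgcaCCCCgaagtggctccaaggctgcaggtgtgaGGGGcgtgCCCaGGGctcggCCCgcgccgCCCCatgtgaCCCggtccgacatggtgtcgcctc

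The 4 promoters had a GC content of 62.8% (SLX1B), 71.6% (RASEF), 75.6% (ZIC2) and 70.4% (FBXW4), against a median of 58% over all 35116 RefSeq promoters. A G4 motif was searched on both strands as 4 runs of GGG or longer G runs, separated by loops of 1 to 7 bases of any kind. The ZIC2 promoter held 2 such matches and the FBXW4 promoter 1, all on the strand opposite to the gene, where they appear above as runs of CCC. No match was found in the 250 bases of SLX1B and RASEF, although RASEF held 7 runs of G and 5 of C and SLX1B held 5 and 3. The hg19 windows themselves were not searched. Over all promoters of this length, 23.5% held the motif, so its presence in 2 of the 4 is a description of these sequences only. Of 42 different genes with a window on a wide region, 12 had a RefSeq promoter in the table used.

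Wide regions ran from 1001 to 2236 bp, with a median of 1130 bp and quartiles of 1061 and 1238.5 bp. They covered 299.7 kb, which is 8.18% of the length of all recurrent regions on chromosomes 1 to 22. Narrower regions had a median of 512 bp and ranged from 297 to 999 bp. Most wide regions were only slightly longer than the limit, since 170 measured less than 1200 bp, 63 measured from 1200 bp to less than 1500 bp and 19 measured 1500 bp or more. The 3 regions just outside it, chr9:140499401-140500397, chr16:21531112-21532109 and chr12:53894384-53895382, had a mean fold enrichment of 22.8, 10.7 and 8.55. The 3 just inside it, chr3:96336209-96337209, chr10:43892038-43893038 and chr21:47743725-47744727, had 3.65, 5.38 and 10.1.

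In most wide regions the length came largely from 1 long peak. A single peak of at least 1000 bp was found in 172 of the 252 (68.3%, CI 62.1 to 74.0), and the merged region was a median of 57 bp longer than its longest peak. In 53 regions the longest peak and the merged region were the same. However, such a long peak was less often seen in more than 1 replicate. It was found in 1 replicate for 107 regions, in 2 for 37, in 3 for 19 and in all 4 for 9, while 80 regions had none. The longest peak of a wide region came from replicate 1, 2, 3 and 4 in 69, 73, 85 and 25 regions. Replicate 4 had the shortest peak list, with 4427 peaks against 8036, 6192 and 6805 in replicates 1 to 3, and without read counts in the lists the depth behind these lengths is unknown. The part of a wide region covered by at least 2 replicates had a median of 898.5 bp, and it reached 1000 bp in 81 regions (32.1%). This was 78.1% of the length of a wide region at the median, close to the 79.4% of a narrower region.

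The part covered by all 4 replicates was 466 bp at the median in the 203 wide regions that had a peak in each. It made up 39.7% of their length, against 58.2% (325 bp) in the 2453 narrower regions with 4 replicates. In bp the shared core was thus longer in wide regions, and as a share of the region it was smaller. No test was made of these lengths, which follow from the choice of the members.

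Support by replicates was high. Wide regions had a peak in 2, 3 and 4 replicates in 12, 37 and 203 cases, so that 80.6% (CI 75.1 to 85.3) were found in all 4. Narrower regions had 1949, 1757 and 2453, and 39.8% were found in all 4. Among 3734 regions of chromosomes 1 to 22 with a peak of 1 replicate only, a single one reached 1000 bp. Support rose along the whole range of lengths, from 7.51% with all 4 replicates below 400 bp to 59.5% at 600 to 799 bp, 77.6% at 1000 to 1199 bp and 89.5% at 1500 bp or more. A merged region with more peaks has more chances to be long, so support and length are not independent measures.

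**Figure D1:**
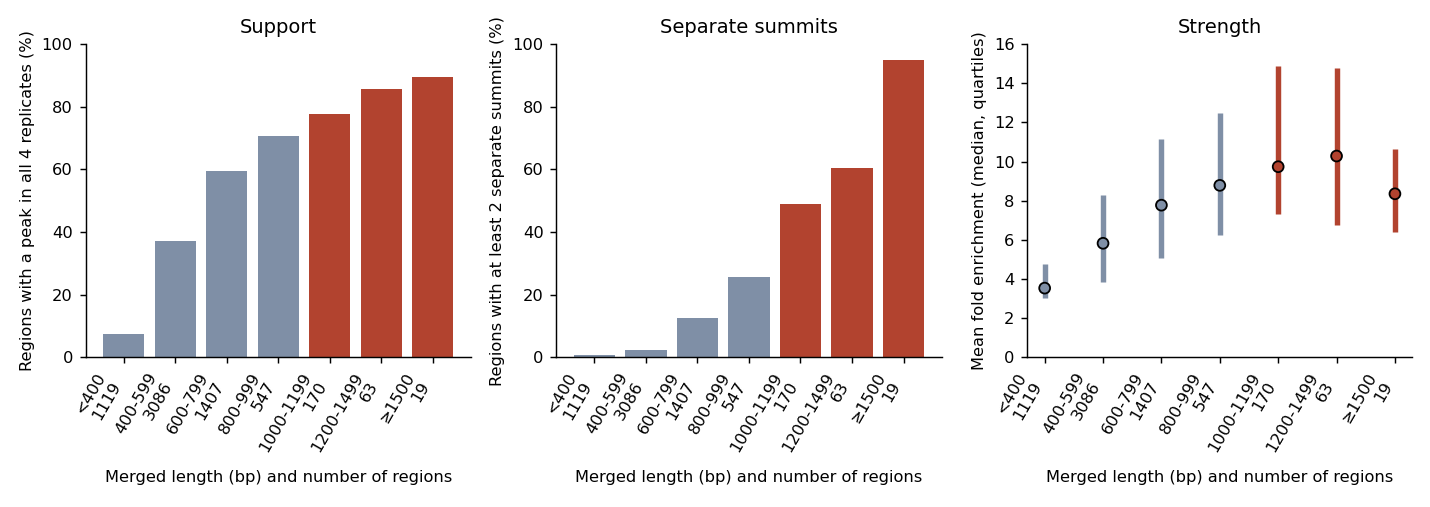
Recurrent regions of chromosomes 1 to 22 by merged length (x axis, bp, with the number of regions under each class), with narrower classes in grey and wide classes in red. The share with a peak in all 4 replicates (left, %) rose from 7.51% to 89.5%, the share with at least 2 separate summits (middle, %) rose from 0.626% to 94.7%, and the mean fold enrichment (right, median as a point and quartiles as a line) rose from 3.54 to 10.3 and was 8.35 in the longest class.

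Fold enrichment, the authors' ratio of pileup to local background at a summit, was taken as the highest peak of each replicate in a region, with 0 where there was none, and averaged over the 4 replicates. The median over wide regions was 9.66 (quartiles 6.88 and 14.8), and values ran from 1.93 to 42.1. Narrower regions had a median of 5.80 and a maximum of 41.2. Part of this gap came from missing peaks, because the medians were 9.80 and 7.59 when a replicate without a peak was left out of the mean. Within each replicate, the median over wide regions with a peak was 11.1, 10.1, 10.3 and 8.84 in replicates 1 to 4, which averaged 10.1 ± 0.947 (SD, n = 4). The median over narrower regions was 8.34, 7.74, 7.98 and 7.17, and averaged 7.81 ± 0.492 (SD, n = 4). The wide median was the higher one in every replicate, by a factor of 1.29 ± 0.0426 (SD, n = 4), and replicate 4 was lowest in both classes. The −log10 of the q-value followed the same order, with medians of 17.4, 14.7, 14.9 and 11.5 in wide regions and 9.96, 8.66, 9.05 and 7.25 in narrower ones.

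A link between strength and length was seen below the limit and not above it. Spearman's rho between merged length and mean fold enrichment was 0.475 across the 6159 narrower regions and 0.262 across the 2453 of them with a peak in all 4 replicates. Across the 252 wide regions it was −0.0305. Of these, 170 measured less than 1200 bp. A rho can be low over so narrow a range, so no change at the limit is read from these values. These are descriptions across regions of the same 4 libraries. Wide regions made up 26 of the 100 strongest recurrent regions and 71 of the 500 strongest (14.2%), against 3.93% of all 6411. Most of the strongest G4 regions were still narrower than 1000 bp, as were most regions of any strength.

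Each wide region was then described by its summits. Summits of all replicates in a region were joined when each lay within 200 bp of the next, and the joined groups are called separate summits. Wide regions had 1 separate summit in 113 cases, 2 in 126 and 3 in 13, so 139 (55.2%, CI 48.8 to 61.4) had at least 2. Among narrower regions 399 (6.48%) had at least 2. Length leaves room for distant summits, and the share grew with length from 2.46% at 400 to 599 bp to 25.6% at 800 to 999 bp, 48.8% at 1000 to 1199 bp and 94.7% at 1500 bp or more. In the 139 regions with at least 2, the outermost summits were a median of 614 bp apart, with a range of 222.5 to 1237 bp.

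Separate summits were less often shared between replicates. At least 2 summits, each found in at least 2 replicates, were present in 52 wide regions (20.6%) and in 24 narrower ones (0.390%). At least 2 summits found in all 4 replicates each were present in 1 wide region, chr5:134261945-134263884, and in 0 of the 6159 narrower ones (CI 0 to 0.0599%). In 85 wide regions (33.7%) a replicate had at least 2 peaks of its own, and in 27 of these at least 2 replicates did. In another 54 (21.4%) no replicate had more than 1 peak and the summits differed between replicates. Replicates 1 to 4 had at least 2 peaks in 40, 21, 39 and 22 wide regions. In 64 wide regions (25.4%) the peaks were separate in 1 replicate and joined by a single peak across their gap in another, against 26 narrower regions (0.422%). Whether such a stretch is called as 1 peak or more thus differed between libraries of the same cells.

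**Figure D2:**
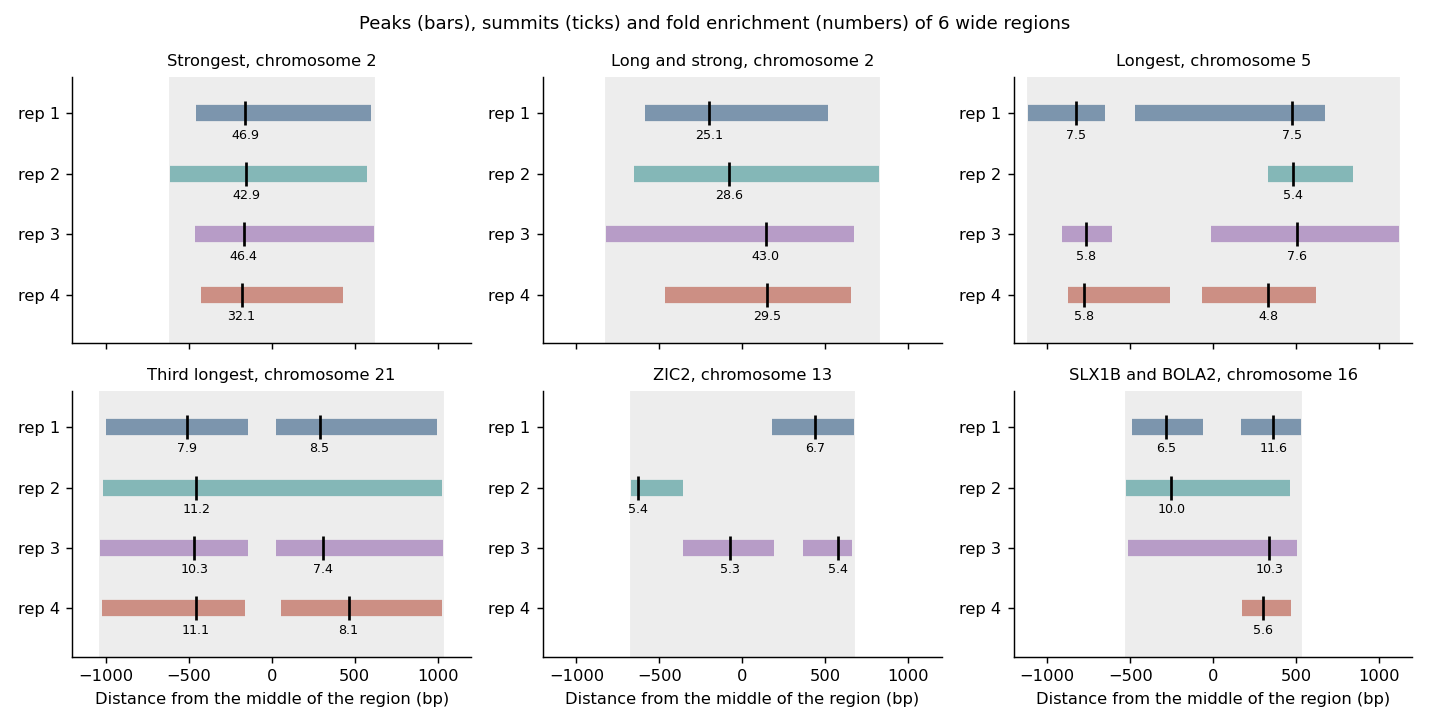
Peaks of 6 wide regions in replicates 1 to 4, with the distance from the middle of the merged region in bp on the x axis, bars for peaks, black ticks for summits, numbers for the fold enrichment of each peak and grey for the merged region. The strongest region had its summits 433 to 462 bp from its left end in all 4 replicates, while the ZIC2 region had no peak in replicate 4 and 3 separate summits, of which 1 was shared by replicates 1 and 3.

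Median strength was lower in wide regions with more summits, with overlapping quartiles. Regions with 1 separate summit had a median fold enrichment of 12.3 (quartiles 8.77 and 18.7), and those with 2 or 3 had 8.44 (quartiles 6.30 and 10.8). The medians for exactly 1, 2 and 3 summits were 12.3, 8.79 and 6.84. Of the 25 strongest wide regions, 20 had 1 summit. The lengths were similar, with medians of 1110 and 1153 bp, and all 4 replicates had a peak in 97 of 113 regions (85.8%) with 1 summit and in 106 of 139 (76.3%) with more. A single peak of at least 1000 bp was found in 88 of the 113 and in 84 of the 139. Narrower regions had the same order, with 5.94 for 1 summit and 4.41 for 2 or 3. A low peak has a less sharply placed summit, and its part in this order was not tested.

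**Figure D3:**
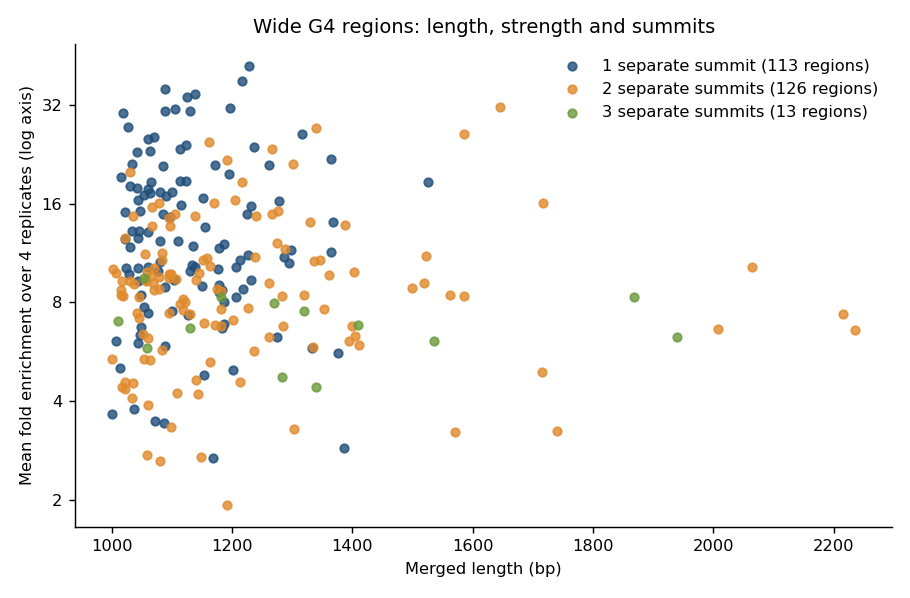
Each point is 1 of the 252 wide regions, with its merged length in bp on the x axis and its mean fold enrichment over the 4 replicates on a log axis, coloured by the number of separate summits (113 regions with 1, 126 with 2 and 13 with 3). The 5 strongest regions have 1 summit and are 1089 to 1229 bp long, and the 10 longest have 2 or 3 summits.

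The strongest wide region was chr2:242294589-242295817, with 46.9, 42.9, 46.4 and 32.1 in replicates 1 to 4 (mean 42.1 ± 6.87, SD, n = 4). Its summits lay 433 to 462 bp from its left end in all 4 replicates, and its peaks were 1053, 1188, 1076 and 861 bp wide. The second was chr3:129829993-129831209, with 36.6, 33.6, 52.1 and 28.8 (mean 37.8 ± 10.04). In both, replicate 4 gave the lowest value. The third was chr3:125634492-125635580, with 38.7, 38.1, 38.3 and 27.9 (mean 35.8 ± 5.24), and it held a peak of at least 1000 bp in all 4 replicates. The fourth was chr12:8395378-8396515, with 48.7, 36.0, 28.6 and 24.9 (mean 34.5 ± 10.5). The fifth was chr17:4613243-4614368, with 35.9, 34.8, 39.3 and 25.3 (mean 33.8 ± 6.02), and here no replicate had a peak of 1000 bp. The ranges of these regions overlapped. Compared within replicates, the first was above the third and the fifth in all 4, and every other pair changed order between replicates.

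The sixth, chr2:112811654-112813298, was also among the 10 longest. It measured 1645 bp and had 25.1, 28.6, 43.0 and 29.5 in replicates 1 to 4 (mean 31.6 ± 7.85). Each replicate had 1 peak there, of 1101, 1478, 1498 and 1116 bp, but the summit of replicates 1 and 2 lay 622 and 739 bp from the left end and that of replicates 3 and 4 lay 963 and 972 bp from it. The other 4 of the 10 strongest were chr7:152160587-152161783 (31.4 ± 3.95), chr8:12051429-12052534 (31.2 ± 5.89), chr4:3956993-3958080 (30.7 ± 3.54) and chr19:9929422-9930551 (30.6 ± 7.61), all with 1 separate summit. Of the 10 strongest, 9 had 1 separate summit. None of the 10 overlapped a listed gene window, so they are given by position. The list holds prostate cancer-specific entries only, so their distance from genes is not known from it.

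The 2 longest regions, chr5:99382175-99384410 (2236 bp) and chr5:99386937-99389151 (2215 bp), lay 2526 bp apart in windows of mitochondrial pseudogenes and had a moderate fold enrichment of 6.57 ± 1.13 and 7.36 ± 1.25 (SD, n = 4). In the first, replicate 1 had peaks of 464 and 1141 bp, replicate 2 had 1 peak of 512 bp, replicate 3 had peaks of 303 and 1132 bp, and replicate 4 had peaks of 615 and 687 bp. Summits 293 to 348 bp from its left end were found in replicates 1, 3 and 4, and summits 1447 to 1620 bp from it in all 4. The fifth longest, chr5:134261945-134263884 (1940 bp), held 9 peaks, with 3 in replicate 1 and 2 in each of the others, and had 5.98, 6.20, 7.07 and 5.87 (mean 6.28 ± 0.546). It was the wide region in which both outer summits were found in all 4 replicates, 245 to 544 bp and 1522 to 1580 bp from its left end, and it too lay in windows of mitochondrial pseudogenes.

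The third longest was chr21:9825586-9827649 (2064 bp), with 8.54, 11.2, 10.3 and 11.1 in replicates 1 to 4 (mean 10.3 ± 1.23). Replicates 1, 3 and 4 had 1 peak on each side of a gap near the middle, with summits 521 to 576 bp and 1320 to 1495 bp from the left end, and replicate 2 covered the whole stretch with 1 peak of 2040 bp. The left summit was thus found in 4 replicates and the right one in 3. Its −log10 q ran from 225 to 296 at the left summit and from 104 to 190 at the right one, with a fold enrichment near the median of wide regions. The fourth longest, chr20:26188505-26190511 (2007 bp), had 7.16, 5.74, 8.54 and 5.13.

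The sixth longest, chr13:113862570-113864437 (1868 bp), was an example of a region that no stretch of 4 replicates supported. Replicate 1 had a peak of 1571 bp (12.9), replicate 2 of 788 bp (6.85), replicate 3 had peaks of 299 and 297 bp (5.31 and 4.45) and replicate 4 had a peak of 444 bp (8.08), and 0 bp were covered by all 4. By contrast, chr15:75742980-75744696 (1717 bp) had 14.7, 15.6, 21.6 and 12.3 (mean 16.04 ± 3.93) with 1147 bp covered by all 4. There the peak was split in replicate 1 and ran through in replicates 2 to 4, with 1466, 1717 and 1591 bp. The other 2 of the 10 longest were chr18:18518587-18520326 (1740 bp, 3.23 ± 0.344) and chr10:111985572-111987286 (1715 bp, no peak in replicate 4). Of the 19 regions of at least 1500 bp, 18 had at least 2 separate summits and 10 (52.6%) lay within 10 kb of another recurrent region.

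To compare strength and support on data that the rule had not used, regions were classed as wide or narrower from 3 replicates and measured in the fourth, each replicate being left out in turn. Regions classed as wide numbered 185, 191, 178 and 228 when replicates 1 to 4 were left out. The left-out replicate had a peak in 96.8%, 96.3%, 94.9% and 82.9% of them, where over all regions classed in the same way 87.9%, 75.3%, 80.4% and 54.6% had one. Narrower regions gave 87.6%, 74.6%, 79.9% and 53.4%. Replicate 4 was lowest in both classes, and its value for wide regions lay above the value of replicates 2 and 3 for narrower ones. The mean difference was 18.9 ± 8.74 percentage points (SD, n = 4), higher for wide regions in 4 of 4 replicates. An exact two-sided sign-flip permutation test over the 4 replicates gave p = 0.125, the smallest p that 4 replicates allow, so a p of 0.05 cannot be reached in this design.

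The left-out replicate also gave higher and longer peaks at wide regions. The median fold enrichment of the regions found was 11.98, 10.2, 10.7 and 9.16 at wide regions and 9.20, 8.28, 8.70 and 7.38 at narrower ones, a difference of 2.12 ± 0.448 (SD, n = 4). This difference was not seen with a length limit of 1500 bp, where it was −0.11 ± 0.747 (SD, n = 4) over 10 to 18 wide regions. The median length that the left-out replicate covered was 864, 830, 909 and 617 bp at wide regions and 423.5, 427, 441 and 395 bp at narrower ones, a difference of 383 ± 111 bp. Every wide median of covered length lay above every narrower one. At least 2 peaks of the left-out replicate were present in 17.3%, 7.61%, 18.3% and 10.6% of the wide regions found, and in 0.552%, 0.355%, 0.319% and 0.0971% of the narrower ones. The left-out replicate had a single peak of at least 1000 bp in 26.3%, 29.9%, 36.1% and 11.1% of the wide regions found. In the narrower ones this was 0.324% to 0.932%. The classing did not require such a peak in the other replicates. All 5 measures were higher for wide regions in 4 of 4 replicates. The exact permutation test gave p = 0.125 before and after Benjamini-Hochberg adjustment over the 5 measures. A longer region has more room for 2 peaks, so the share with at least 2 follows in part from the classing on length. Nothing is read from the direction of that share.

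**Figure D4:**
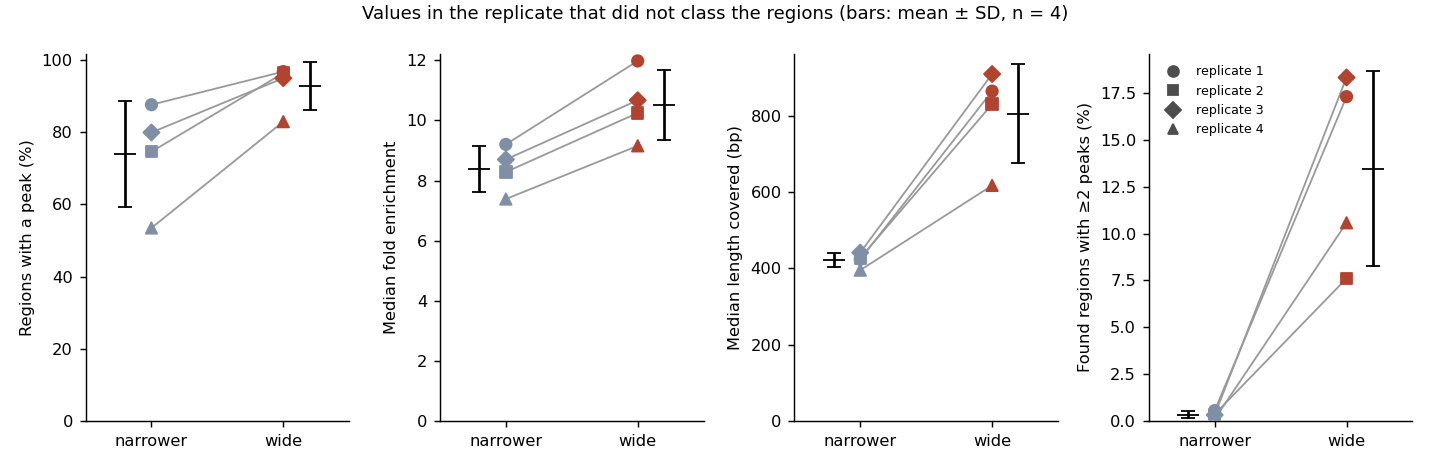
Values in the replicate that was not used to class the regions, for narrower (grey) and wide (red) regions, with 1 symbol per left-out replicate joined by a line and bars for the mean ± SD (n = 4). From left to right the y axes give the share of regions with a peak (%), the median fold enrichment, the median length covered (bp) and the share of found regions with at least 2 peaks (%), and all 4 lines rise in every panel.

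Further comparisons were added after the data were seen. Among regions with a peak in all 3 classing replicates, the difference in support was 8.81 percentage points. In the 25% of regions with the highest mean fold enrichment it was 2.21 percentage points and higher for wide regions in 3 of 4 replicates (exact permutation p = 0.375), where 98.4% to 100% of wide regions and 91.2% to 99.8% of narrower ones were found again. With shares this close to 100% in both classes, support could hardly differ there, so nothing is read from this difference. In the same 25%, the differences in fold enrichment (2.80) and covered length (361 bp) were in favour of wide regions in 4 of 4 replicates. A long region can also be hit by a chance overlap more easily. When the peak of the left-out replicate had to cover the strongest summit of the 3 classing replicates, the difference in support was 15.4 percentage points.

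Wide regions were spread over all 22 autosomes. Chromosome 19 had the most, 31 of its 488 recurrent regions (6.35%) or 0.525 per Mb, and it also had the highest density of recurrent regions of any length. Chromosomes 17 and 16 followed with 17 and 18 wide regions at 0.2097 and 0.1997 per Mb. As a share of recurrent regions, chromosome 18 (7 of 108, 6.48%) and chromosome 10 (16 of 291, 5.50%) were also high, and chromosome 17 was at 3.68%, below the 3.93% of all autosomes. The lowest shares were on chromosome 14 (2 of 230, 0.870%), chromosome 20 (2 of 199, 1.01%) and chromosome 4 (2 of 197, 1.02%). With 2 to 31 wide regions per chromosome these shares carry a wide counting error, and no test between chromosomes was made.

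**Figure D5:**
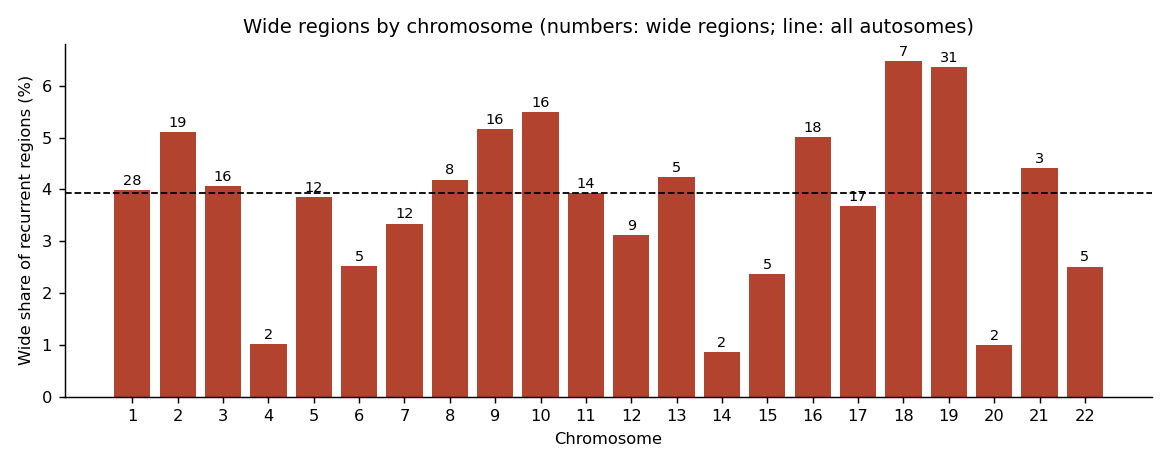
Share of recurrent regions that were wide (y axis, %) on each of the 22 autosomes (x axis), with the number of wide regions above each bar and the share over all autosomes, 3.93%, as a dashed line. Chromosomes 18 and 19 stand highest at 6.48% and 6.35%, and chromosomes 14, 20 and 4 lowest at 0.870%, 1.01% and 1.02%.

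Another recurrent region lay within 10 kb of 62 wide regions (24.6%, CI 19.4 to 30.4) and of 1110 narrower ones (18.0%, CI 17.07 to 19.01). The median gap to the next recurrent region was similar, at 52.4 and 57.4 kb. Within 2 Mb of the first base or of the last peak of a chromosome lay 44 wide regions (17.5%, CI 12.98 to 22.72) and 577 narrower ones (9.37%, CI 8.65 to 10.1). Both shares are descriptions, since position was compared over regions and not over samples. There were 9 pairs of wide regions within 10 kb of each other, which involved 15 regions on chromosomes 1, 5, 16 and 19. The densest group held 5 wide regions within 27.5 kb, from 1248727 to 1276224 on chromosome 19, with a mean fold enrichment of 7.61, 6.84, 10.7, 8.99 and 10.2 from left to right. On chromosome 16, chr16:30381446-30382522 (9.96) and chr16:30389426-30390461 (14.6) lay 6903 bp apart. On chromosome 1, chr1:2584548-2585739 (1.93) and chr1:2586080-2587649 (3.21) lay 340 bp apart, and the first was the weakest wide region of all.

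A listed gene window was overlapped by 17 wide regions (6.75%, CI 3.98 to 10.6) and by 443 narrower ones (7.19%, CI 6.56 to 7.87). The shares were close, and a region outside these prostate cancer-specific windows can still lie at a gene. Of the 17, 8 lay in windows named for mitochondrial pseudogenes or mitochondrial-like genes (3.17% of all wide regions, CI 1.38 to 6.16), against 16 narrower regions (0.260%). Such nuclear copies of mitochondrial DNA can share reads with the mitochondrial genome, which was itself called over its full 16569 bp, so these peaks are uncertain. They include the windows of MTRNR2L2 (a humanin-like gene) with 10.7, 7.33, 9.47 and 9.26 in replicates 1 to 4, of MTND1P23 and MTND2P28 with 7.52, 8.25, 8.38 and 7.82, of MTND6P4 with 6.39, 6.83, 6.51 and 7.29, and of MTND6P3 with 5.72, 6.23, 6.29 and 5.54. The region of MTRNR2L12 had a peak in replicates 3 and 4 only. The other 3 are the chromosome 5 regions of MTND5P10, MTATP6P2 and MTND5P11 with MTND4P12 that are among the longest. These 8 regions had a median length of 1465 bp and a mean fold enrichment between 3.65 and 9.18, and 6 of them lay on chromosome 5, which had 12 wide regions in all. Without them, 133 of 244 wide regions (54.5%) had at least 2 separate summits and the median fold enrichment was 9.77. One more, chr1:567131-568184 in the window of hsa-mir-6723, lay 234 bp from the region of MTND1P23 and had 7.75 ± 1.31 (SD, n = 4).

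The 8 remaining regions lay in windows of other genes. The strongest was chr10:482201-483477 in a window listed under a clone name, with 17.3, 17.4, 14.4 and 11.7 (mean 15.2 ± 2.73). The region chr12:124456836-124457965 in another such window had 12.4, 9.46 and 7.49 and no peak in replicate 4. The remaining 6 lay in windows of SLX1B, SLX1A, RASEF, CXXC5, ZIC2 and FBXW4. None of these 6 exceeded a mean of 9.37, and only the SLX1B region had a peak in all 4 replicates.

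The region chr16:29465493-29466549 covered the centre of the windows of SLX1B and BOLA2, whose product takes part in iron-sulfur protein assembly. It also overlapped the window of SULT1A4, a sulfotransferase, without covering its centre. Replicates 1 to 4 had 11.6, 10.02, 10.3 and 5.56 there (mean 9.37 ± 2.64). Summits lay on both sides of the SLX1B window centre, 85 bp before and 559 bp after it in replicate 1, 56 bp before it in replicate 2, 535 bp after it in replicate 3 and 496 bp after it in replicate 4. Replicates 2 and 3 covered both positions with peaks of 991 and 1019 bp. The near-identical copies SLX1A, BOLA2B and SULT1A3 lie at chr16:30204907-30205958, where the values were 7.19, 10.1, 8.28 and no peak in replicate 4. Summits there lay 151 bp before and 546 bp after the SLX1A centre in replicate 1, 124 bp before it in replicate 2, and 151 bp before and 517 bp after it in replicate 3. Both copies thus held an upstream and a downstream summit at like distances. Reads of the 2 copies can be shared between them, so their values are not independent and are uncertain.

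At ZIC2, whose C-rich promoter is printed above, the region chr13:100633169-100634508 had 6.74, 5.44 and 5.43 in replicates 1 to 3 and no peak in replicate 4. Summits lay 250 bp after the window centre in replicate 1, 820 bp before it in replicate 2, and 262 bp before and 388 bp after it in replicate 3. No peak there reached 1000 bp, and the 1340 bp of this region arose from short peaks at different places. At RASEF, chr9:85677126-85678338 had 5.63, 5.93 and 6.78 in replicates 2 to 4 and no peak in replicate 1. The summits lay 706, 40 and 794 bp after the window centre, and replicate 2 had a peak of 1019 bp. At FBXW4, chr10:103453889-103455191 had 7.69 and 5.44 in replicates 1 and 2 only, with summits 702 and 327 bp after the centre, and the peak of replicate 2 spanned 1303 bp. At CXXC5, which encodes a zinc finger protein that binds unmethylated CpG, chr5:139027588-139028622 had 8.15 and 9.98 in replicates 2 and 3 only, and its summits lay 1063 and 1470 bp after the centre, which the region did not cover. The wide regions at RASEF, ZIC2, FBXW4 and CXXC5 thus had mean fold enrichments of 3.28 to 4.58 and were each missing in at least 1 replicate, and a window centre need not be a start site.

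A small group of wide regions combined a low fold enrichment with a very high significance, a limit set after the values were seen (mean fold enrichment below 7 and mean −log10 q of at least 20, among regions with 4 replicates). It held 4 of 203 wide regions (1.97%) and 16 of 2453 narrower ones (0.652%). The region chr1:121484169-121485545 had 4.49, 5.74, 5.22 and 6.99 with −log10 q of 154, 211, 188 and 237. The region chr19:27731842-27732855 had a mean of 5.06 ± 0.727 with −log10 q of 120 ± 11.9, and chr7:61968677-61969784 had 4.23 ± 0.411 with 111 ± 8.57 (SD, n = 4). All 3 abutted the largest stretch without any peak on their chromosome, of 21.1, 3.52 and 5.53 Mb. The fourth, chr18:18518587-18520326, had 3.23 ± 0.344 with 48.1 ± 6.69 and lay 15.9 Mb from the largest such stretch of chromosome 18. That stretch ran from 34409245 to 43546944, and the distance to smaller stretches is not given here. Among the other wide regions of low fold enrichment, the highest mean −log10 q was 10.9. Among the other narrower ones it was 19.9, directly under the limit, so their count depends on the cut. High significance was also seen above the fold limit. The wide region chr1:565711-566896 (7.99) had −log10 q of 59.0, 66.7, 72.9 and 48.0. Its neighbour chr1:567131-568184 (7.75) had 69.0, 60.6, 71.1 and 67.9. The region chr21:9825586-9827649 (10.3) had 225 to 296 at its most significant peak in each replicate. For a given fold, a higher −log10 q comes with more reads in the peak and in its background, and the depth of the lists is unknown.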

How the data were processed

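The lists cover 4 BG4 ChIP-seq replicates of C4-2 cells. Per the labels, the submitters' processing notes name bcl2fastq 1.8.4, Bowtie2 2.2.5, SAMtools 1.11 and MACS2 2.1.1, and hg19. The methods name hg38, but the last peak of chromosome 1 ended at 249201060, beyond its 248956422 bp in hg38. The deposited fold enrichment is the authors' ratio over local background at the summit. The authors' caller wrote the deposited p-values and q-values as −log10, and all q-values were below 0.05. The deposited score was not used. Treatment of duplicates, use of the input and read depth are not given in the sources used here.

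The members and lists were chosen with earlier results of these data known. Peaks were merged across replicates (overlap of at least 1 bp) and summits joined within 200 bp. Regions named were the 10 longest, the 10 strongest, those in listed gene windows and the 3 on each side of the length limit. The chromosome 1, 16 and 19 neighbours and the group of high significance were chosen after their values were seen. Promoters were to be those of up to 6 genes in order of fold enrichment. Since the leading chromosome 16 genes are overlapping or duplicated copies, only SLX1B was kept from them, and RASEF, ZIC2 and FBXW4 (the first of 2 RefSeq entries) were added. No hg19 genome or annotation was used.

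Classes were compared by exact two-sided sign-flip permutation tests over 4 replicates, and p-values measure only the spread between these replicates. Each replicate also helped to class regions when another was left out, so the 4 differences are not independent, as the test assumes. The steps were tested on 2000 simulated regions, and 6 of 6 checks were recovered exactly. Alternatives changed the merging overlap, the q-value limit, the number of replicates, the length limit, the definition of length, the joining distance, the neighbour distance, the window width and the replicates used. Scripts ran in Python 3.11.15 with pandas 2.3.3, matplotlib 3.10.9, scipy 1.17.1 and numpy 2.4.6.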

Additional observations from a re-analysis of the deposited data

Results flagged for a closer look

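Replicate 4 stood apart from the other 3 in its peaks at wide regions. It had a peak in 213 of the 252 regions (84.5%), where replicates 1 to 3 had one in 246, 245 and 243. When regions were classed without it, it had a peak in 82.9% of the wide ones, below the 94.9% to 96.8% of the other replicates. In each case its gap to the nearest replicate exceeded Dixon's critical share of the range of the 4 values. Of 44 measures per replicate checked in this way, these 3 exceeded the limit, they are not independent of each other, and chance alone does so in about 1 of 20 groups. Replicate 4 also had the shortest peak list (4427 peaks) and was lowest at narrower regions. There it had a peak in 56.3%, against 90.4%, 78.2% and 83.3% in replicates 1 to 3. A low share was thus not particular to wide regions. The part of depth in these values was not tested.

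Outside chromosomes 1 to 22, 25 further recurrent regions reached 1000 bp, and all 25 had a peak in all 4 replicates. They were 5 of 132 recurrent regions on the sex chromosomes (3.79%), the mitochondrial genome, which was called over 16569 bp, and 19 of 291 regions on unplaced or alternative contigs (6.53%). The longest region on a contig measured 16483 bp, and the median fold enrichment of the 19 was 9.55.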

How the results depend on the processing

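The values of this paragraph concern regions merged from all replicates used. The wide ones were higher than the narrower ones in support, fold enrichment and the share with at least 2 summits under each alternative. Most values moved with the definition. The number of wide regions was 799 at a limit of 800 bp, 19 at 1500 bp, 65 when at least 2 replicates each had to hold a single peak of 1000 bp, and 178 to 228 with 1 replicate left out. The share found in all replicates used was 73.8% at 800 bp, 89.5% at 1500 bp, 95.4% with the 2 long peaks, 74.7% at a −log10 q of at least 4, and 85.4% to 93.0% with 1 replicate left out. The median fold enrichment was 8.35 at 1500 bp, 11.7 with the 2 long peaks and 9.80 to 10.3 with 1 replicate left out. The share with a single peak of 1000 bp was 21.5% at 800 bp, 94.7% at 1500 bp, 100% by construction with the 2 long peaks, 74.1% when peaks had to overlap by 50% of the shorter one, and 71.5% to 75.9% with 1 replicate left out. The share with at least 2 separate summits was 34.9% at 800 bp, 94.7% at 1500 bp, 48.5% at a −log10 q of at least 4, 64.3% with summits joined within 100 bp, 43.3% within 400 bp and 44.5% to 50.6% with 1 replicate left out. With a joining distance of 100 bp the narrower share was 25.1%. The share with a neighbour was 52.6% at 1500 bp, 30.8% with the 2 long peaks, 18.3% with at least 3 replicates, 18.7% within 5 kb, 49.2% within 50 kb and 22.4% to 24.6% with 1 replicate left out. The share in listed windows was on either side of the narrower one, at 4.76% against 7.52% at 800 bp, 21.1% against 7.13% at 1500 bp, 13.8% against 7.11% with the 2 long peaks and 6.28% to 7.87% with 1 replicate left out.

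The difference in fold enrichment in the left-out replicate was reversed at 1500 bp, −0.11 (exact permutation p = 0.875, higher for wide regions in 1 of 4 replicates), where 10 to 18 regions were classed as wide. The cause was not tested. Its other alternatives kept the direction, as did those for support and covered length. With 1 replicate left out, the differences were 12.7 to 15.4 percentage points, 1.70 to 2.43 and 414 to 457 bp. No paired analysis was possible because the study has 1 condition and so no groups of samples to pair, while wide and narrower regions were compared within each left-out replicate. Peak lists hold no read counts, so a missing peak can lie just under the caller's threshold.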
